A study of Homo sapiens with 6 samples.

Results

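Factors that make replication-dependent histone mRNAs were measured in Caco-2 cells with and without overexpression of apoM. The genes are NPAT, CASP8AP2, SLBP, LSM10, LSM11, ZNF473 and ERI1, taken by name from the array's gene annotation, and they are 7 of 33616 genes tested. Each is read by 1 feature of the array, a set of probes that gives 1 value per array. Caco-2 is a human line from a colon carcinoma that is widely grown to stand for absorptive gut epithelium. The labels give 3 arrays named NC and 3 arrays of cells that overexpressed apoM, the sphingosine-1-phosphate carrier of high-density lipoprotein encoded by APOM. The labels do not say what NC stands for, how apoM was overexpressed, whether the cells were 1 clone, or whether each array had a culture of its own. The p-values therefore rest on array-to-array spread, and part of that spread may be technical.

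Replication-dependent histone genes are transcribed in S phase at the histone locus body, a nuclear body built around NPAT. Their mRNAs carry no poly(A) tail and end instead in a conserved stem-loop. SLBP, the stem-loop binding protein, holds this structure, and the U7 snRNP pairs with the pre-mRNA downstream of it. CASP8AP2, also called FLASH, binds LSM11 of the U7 snRNP and helps to recruit the cleavage complex. LSM10 and LSM11 take the places of the Sm proteins SNRPD1 and SNRPD2 in the U7 ring. ZNF473, also called ZFP100, is a zinc finger protein that bridges SLBP and the U7 snRNP. ERI1 is an exonuclease that trims the finished end and takes part in decay of histone mRNA.

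None of the 7 genes changed between the groups at the threshold used, an adjusted p of 0.05 over all genes in limma. SLBP, LSM10 and LSM11 had the highest changes, from 0.41 to 0.54 on the log2 scale, and NPAT, CASP8AP2 and ZNF473 the lowest, from -0.22 to -0.18. ERI1 lay between them at 0.14. The smallest adjusted p of the 7 was 0.178. Over all genes, 691 passed, or 2.06% of those tested. At an unadjusted p under 0.05, limma gave 3 of the 7, all higher with apoM, against 19.1% of all genes in either direction and 14.3% higher. The groups did not overlap for 2 of the 7, both higher, against 24.4% of all genes in either direction and 17.3% higher. The median change of the 7 was 0.14, beside 0.09 over all genes tested and 0.08 over the 17575 protein-coding genes.

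**Figure D1:**
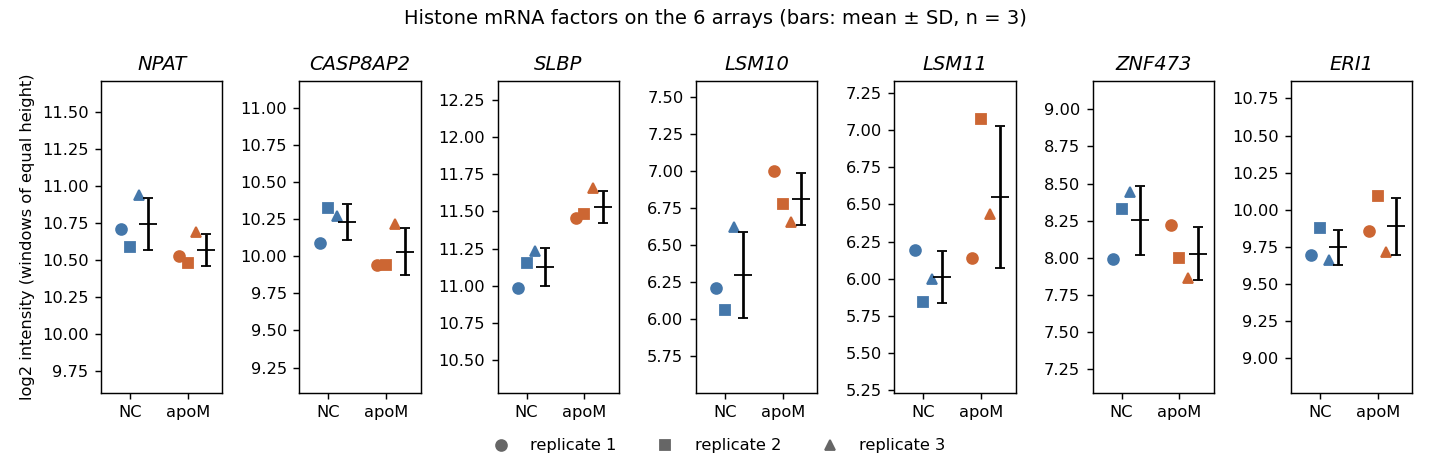
The log2 intensity of each of the 7 genes (vertical axes, windows of equal height but different level) on the 3 NC arrays and the 3 arrays with apoM, with the mean and SD of each group. The groups lie apart for SLBP and LSM10 and overlap for the other 5 genes.

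APOM itself, the check of the labels, read 15.63 ± 0.19 with overexpression against 5.88 ± 0.51 in NC (SD, n = 3). Its log2 change of 9.76 (SE 0.25, limma adjusted p = 1.34e-07) stands beside an exact two-sided permutation p of 0.1, the smallest that 3 arrays against 3 can give. Array medians ran from 4.48 to 4.49 in NC and from 4.51 to 4.53 with apoM, so they were higher on every array with apoM. None of 11 markers of the intestinal epithelium passed. Of these, EPCAM, CDH1, VIL1, CDX2 and CDH17 read from 12.66 to 17.44 over the 6 arrays, FABP1 from 12.11 to 13.10, KRT20 from 7.05 to 7.38 and APOA1 from 5.52 to 6.34. LGALS4 read from 3.56 to 4.16, below the array medians. KRT8 and KRT18 read from 16.80 to 18.68, and both were higher on every array with apoM, by 0.48 and 0.61. The summed linear intensity of 3 leukocyte markers measured of 4 listed, as log2, was 7.30 to 7.496 in NC and 7.31 to 7.55 with apoM. For 3 endothelial markers it was 6.93 to 7.29 and 7.20 to 7.37. For 4 fibroblast markers it was 9.64 to 9.83 and 9.42 to 9.60, so this sum was lower with apoM on every array. COL1A1, the brightest of the 4, had a change of -0.27 with its groups apart. PDGFRB went the other way at 0.32, also with its groups apart, while COL1A2 (-0.23) and DCN (-0.09) had overlapping groups. The part of these markers in the results was not tested.

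NPAT is the coactivator that cyclin E and CDK2 phosphorylate at the start of S phase. It read 10.71, 10.59 and 10.94 on NC replicates 1, 2 and 3 and 10.53, 10.48 and 10.69 with apoM. NC replicate 3 was the highest array and the groups overlapped, since apoM replicate 3 lay above NC replicate 2. The change was -0.18 (SE 0.16, 95% interval -0.54 to 0.18, limma adjusted p = 0.610), a ratio of 0.885. Without NC replicate 3 it was -0.08.

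The promoter of NPAT is shown because the gene lies head to head with ATM, the DNA damage kinase, so that both genes start from 1 stretch of DNA. RefSeq's window for NPAT in GRCh38.p14, 250 bases before to 50 after the start, is chr11:108222589-108222888 on the minus strand. It shares 72 bases with 1 of the 2 windows given for ATM, which is read from the plus strand. Capitals mark CCAAT boxes (CCAAT) and GC boxes (GGGCGG), either strand.
NPAT promoter: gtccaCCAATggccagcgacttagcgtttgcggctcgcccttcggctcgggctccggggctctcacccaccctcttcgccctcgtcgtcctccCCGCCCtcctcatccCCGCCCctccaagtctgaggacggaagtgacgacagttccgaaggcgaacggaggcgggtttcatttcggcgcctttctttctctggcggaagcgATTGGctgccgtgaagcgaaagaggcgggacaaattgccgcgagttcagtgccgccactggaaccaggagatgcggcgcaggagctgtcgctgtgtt

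ATM, measured on its own feature, read 12.47, 12.52 and 12.27 in NC and 12.37, 12.48 and 12.02 with apoM. These groups overlapped as well, and the change of ATM was -0.13 (SE 0.17, limma adjusted p = 0.741). The intervals of both genes included 0. The array order differed, with NPAT highest on NC replicate 3 and ATM on NC replicate 2.

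CASP8AP2 is a large scaffold protein of the histone locus body that acts in both transcription and cleavage. It read 10.09, 10.33 and 10.27 in NC and 9.94, 9.94 and 10.22 with apoM. Replicates 1 and 2 with apoM were the lowest arrays, but apoM replicate 3 lay above NC replicate 1. The change was -0.20 (SE 0.16, 95% interval -0.56 to 0.16, limma adjusted p = 0.556).

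SLBP binds the stem-loop from cleavage through export and translation, and its protein is destroyed at the end of S phase, which an mRNA array does not read. SLBP mRNA read 10.99, 11.16 and 11.23 in NC and 11.46, 11.48 and 11.66 with apoM. All 3 arrays with apoM lay above all 3 NC arrays, with 0.23 between the nearest pair and group SDs of 0.13 and 0.11. The change was 0.41 (SE 0.15, 95% interval 0.06 to 0.75), which is 1.33-fold. It had an unadjusted p of 0.0257 in limma and did not pass over all genes (adjusted p = 0.188).

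The promoter of SLBP is shown because SLBP had the widest gap between groups of the 7 genes. Its window is chr4:1712270-1712569 in GRCh38.p14, minus strand, and 76.7% of its bases are G or C, against 64.0% for NPAT. Capitals again mark CCAAT and GGGCGG on either strand. The window holds 2 GC boxes and no CCAAT, where NPAT holds 2 of each.
SLBP promoter: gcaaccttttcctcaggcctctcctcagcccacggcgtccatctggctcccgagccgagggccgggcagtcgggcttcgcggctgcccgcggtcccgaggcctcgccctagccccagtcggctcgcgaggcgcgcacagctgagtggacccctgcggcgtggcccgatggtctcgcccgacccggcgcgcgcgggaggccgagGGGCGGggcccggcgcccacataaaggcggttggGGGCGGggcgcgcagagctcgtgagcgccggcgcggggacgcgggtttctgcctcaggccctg

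Windows of 5 of the 7 genes were searched for 5 motifs on both strands; those of ZNF473 and ERI1 were not used here. CCAAT was found in NPAT, CASP8AP2 and LSM10 and in 34.6% of all 35116 windows of the same length. GGGCGG was found in NPAT, SLBP, CASP8AP2 and LSM11 and in 45.0% of all windows. Of the E2F-type motifs, TTTGGCGC was found once, in CASP8AP2, and in 0.652% of all windows, while TTTCCCGC was found in none of the 5 genes and in 1.63% of all windows. TATAAA was also found in none of the 5 and in 11.5% of all windows. In the printed sequences no marked motif overlaps another. A match describes the letters and is not a bound site.

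LSM10 and LSM11 are the proteins that set the U7 ring apart from the rings of the spliceosome. LSM10 read 6.21, 6.06 and 6.62 in NC and 6.9985, 6.77 and 6.66 with apoM. The groups did not overlap, but NC replicate 3 and apoM replicate 3 differed by less than either group's SD of 0.29 and 0.17. The change was 0.51 (SE 0.19, 95% interval 0.09 to 0.93), or 1.42-fold, with an unadjusted p of 0.0230 in limma and an adjusted p of 0.178. Without NC replicate 3 it was 0.67 (limma adjusted p = 0.0621).

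LSM11 read 6.19, 5.84 and 6.00 in NC and 6.14, 7.08 and 6.43 with apoM. Replicate 2 with apoM stood highest, and replicate 1 with apoM lay below NC replicate 1, so the groups overlapped. The change was 0.54 (SE 0.24, 95% interval 0.01 to 1.07), or 1.45-fold, with an unadjusted p of 0.0455 in limma and an adjusted p of 0.2504. Leaving out apoM replicate 2 gave 0.28 (limma adjusted p = 0.537).

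The Sm proteins that LSM10 and LSM11 replace were measured on the same arrays. SNRPD2, which LSM11 replaces, read 8.55, 8.67 and 10.01 in NC and 11.37, 11.14 and 10.93 with apoM. Its groups lay apart, NC replicate 3 stood above the other NC arrays, and it rose by 2.07 (SE 0.34, limma adjusted p = 0.0273). It did not pass over all features (adjusted p = 0.0744), with the replicate number as a block (0.0585) or without any 1 array other than NC replicate 3 (up to 0.124). SNRPD1, which LSM10 replaces, read 12.62, 12.63 and 13.45 in NC and 13.53, 13.58 and 13.67 with apoM. Its groups also lay apart, with a change of 0.69 (SE 0.23, limma adjusted p = 0.133).

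The change of SNRPD2 exceeded that of LSM11 by 1.53. As a log2 ratio within each array, centred on its mean, SNRPD2 over LSM11 read -1.47, -1.001 and 0.18 in NC and 1.40, 0.23 and 0.66 with apoM. All 3 arrays with apoM lay above NC, and the exact two-sided permutation p was 0.1, the smallest possible, or 0.2 adjusted over the 2 pairs compared. For SNRPD1 over LSM10 the difference was 0.18, the groups overlapped, and the exact permutation p was 0.5, also 0.5 adjusted over both pairs. It turned to -0.06 with quantile normalization, was 0.0649 without apoM replicate 3 and 0.0841 without NC replicate 1, and was 0.29 without NC replicate 3 and 0.31 without apoM replicate 1. These pairs were compared after the single genes had been seen.

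**Figure D2:**
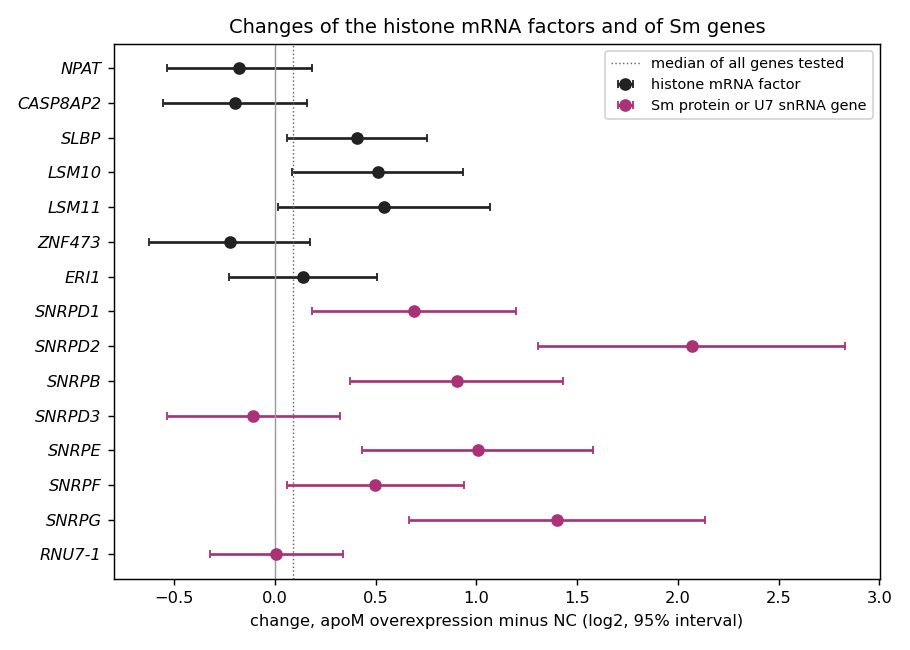
The log2 change (apoM overexpression minus NC, horizontal axis) of the 7 histone mRNA factors and of the Sm genes and RNU7-1, with the 95% interval from limma, a solid line at 0 and a dotted line at the median of all genes, 0.09. The 7 factors lie between -0.22 and 0.54, and SNRPD2 stands farthest to the right at 2.07.

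ZNF473 read 7.99, 8.33 and 8.44 in NC and 8.22, 8.0001 and 7.86 with apoM. The lowest NC array lay among the arrays with apoM, so the groups overlapped. The change was -0.22 (SE 0.18, 95% interval -0.62 to 0.18, limma adjusted p = 0.547), and it was -0.11 with quantile normalization and -0.36 without NC replicate 1.

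ERI1 read 9.70, 9.88 and 9.66 in NC, and with apoM it read 9.86, 10.09 and 9.72. NC replicate 2 lay above 2 of the arrays with apoM, so the groups overlapped. The change was 0.14 (SE 0.16, 95% interval -0.23 to 0.51, limma adjusted p = 0.702), and it was 0.04 without apoM replicate 2.

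Pairs of the 7 genes varied in how they ran across the 6 arrays. Pearson's r over the 6 arrays, which share the same group difference and are given as a description, ranged over the 21 pairs from -0.83 for NPAT with ERI1 to 0.74 for SLBP with LSM10. Between NPAT and CASP8AP2 it was 0.62, and between LSM10 and LSM11 0.46. ZNF473, which bridges SLBP and the U7 snRNP, had r of -0.40 with SLBP and -0.65 with LSM11.

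Histone mRNA itself is the product of these factors. Of 57 replication-dependent histone genes measured, 35 rose and none fell in limma, beside 2.06% of all genes that passed. Their median change was 1.10, beside 0.09 over all genes. The count of 35 became 46 without NC replicate 3, 8 without apoM replicate 3 and 1 without NC replicate 1. It was 0 without NC replicate 2, apoM replicate 1 or apoM replicate 2. It was also 0 over all features and with the replicate number as a block. With each gene centred on its own mean, the median of the histone genes on NC replicates 1, 2 and 3 was -0.83, -0.61 and -0.12, and with apoM it was 0.70, 0.65 and 0.35. SLBP, on the same scale, had -0.34, -0.17 and -0.10 in NC and 0.13, 0.15 and 0.33 with apoM. Both were lower on every NC array, but among the arrays with apoM the histones were lowest on replicate 3, where SLBP was highest. NPAT had deviations of 0.05, -0.07 and 0.28 in NC and -0.13, -0.17 and 0.04 with apoM, highest on NC replicate 3. The part of the histone and S phase values in the changes of the 7 genes was not tested. Among 7 replacement histones measured, whose mRNAs carry poly(A) tails, none passed and the median change was 0.39, with H2AZ1, the gene of a variant H2A, highest at 0.86 (limma adjusted p = 0.0652).

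Of 15 S phase genes of DNA replication, 2 rose, TK1 and GINS2, none fell, and the median change was 0.30. Values were higher with apoM in 13 of the 15, with the groups apart in 8, all higher. Over all genes, 2.06% passed, and the groups lay apart for 24.4% in either direction and 17.3% higher. Neither TK1 nor GINS2 passed over all features or with the replicate number as a block. Neither passed without any 1 of the arrays other than NC replicate 3. PCNA, the sliding clamp, had a change of 0.49 (limma adjusted p = 0.231), with its groups overlapping. MKI67, a marker of dividing cells, had a change of -0.17 (limma adjusted p = 0.581), and its 3 NC arrays lay above the 3 arrays with apoM. The nearest pair, NC replicate 3 at 14.44 and apoM replicate 3 at 14.43, differed by less than either group's SD of 0.11 and 0.04. In extracts of whole cultures, a different share of cells in S phase and a different amount of RNA per cell cannot be told apart.

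Other genes of histone mRNA metabolism were taken as 7 lists of 56 genes, of which 50 were measured on a feature with 1 gene symbol. Of these 50, 2 rose, SNRPD2 and LSM2, none fell and 48 did not pass, with a median change of 0.10. The share of all genes that passed was 2.06%. At an unadjusted p under 0.05 in limma stood 14 of the 50, 13 of them higher, against 19.1% of all genes in either direction and 14.3% higher. The count of 2 was 12 without NC replicate 3 and 0 without any other single array.

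**Figure D3:**
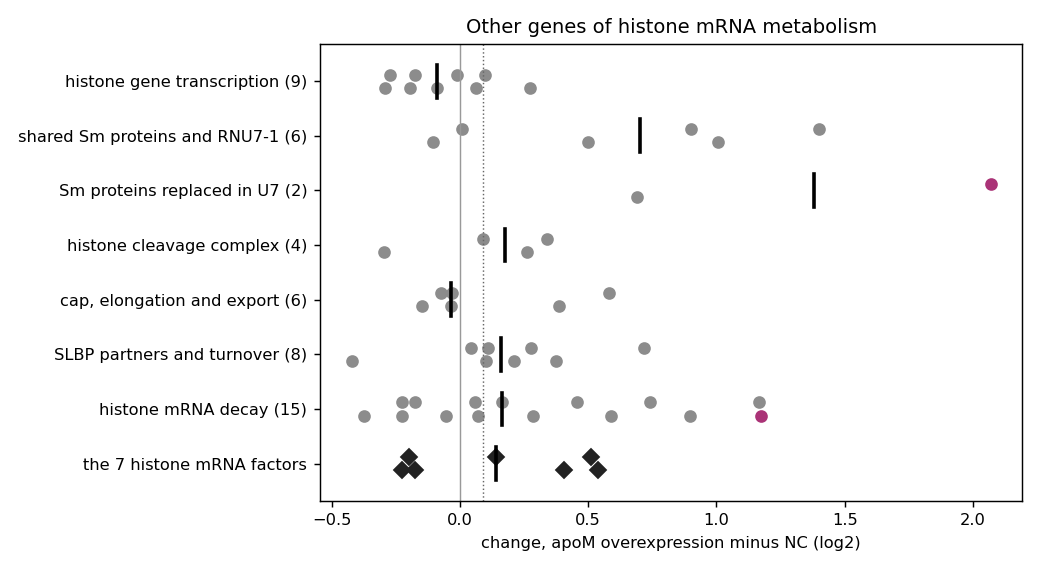
The log2 change (apoM overexpression minus NC, horizontal axis) of each gene in the 7 lists of histone mRNA metabolism, with the number measured in brackets, and of the 7 factors in the bottom row. Bars are medians, coloured points passed an adjusted p of 0.05, the solid line is 0 and the dotted line the median of all genes. SNRPD2 and LSM2 are the coloured points.

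Upstream, none of 9 other genes of histone gene transcription passed, and their median change was -0.09. HINFP, the zinc finger factor of H4 promoters, had a change of -0.29 (limma adjusted p = 0.344) and E2F1, a cell cycle transcription factor, of 0.27 (limma adjusted p = 0.412). CRAMP1 had a change of -0.27. The HINFP groups lay apart, with NC at 11.26, 11.41 and 11.12 and apoM at 11.06, 10.88 and 10.97.

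The Sm proteins that the U7 ring shares with the spliceosome had higher values with apoM in 4 of 5 genes, none of which passed. SNRPG had a change of 1.40 (limma adjusted p = 0.0578), SNRPE of 1.01 (limma adjusted p = 0.0683) and SNRPB of 0.90 (limma adjusted p = 0.0735). SNRPG read 13.27, 14.21 and 14.83 in NC and 15.56, 15.63 and 15.33 with apoM, with the groups apart and NC replicate 1 lowest. All 3 passed without NC replicate 3, with adjusted p-values of 0.00828, 0.00788 and 0.0280. They also passed with array weights and among genes above the median level, and SNRPG and SNRPE with trend and robust moderation. Of 16 refits, SNRPG and SNRPE passed in 4 each and SNRPB in 3. SNRPD3, the exception in direction, had a change of -0.11. RNU7-1, the U7 snRNA, read 4.04 to 4.22 on the 6 arrays, below every array median, on a feature to which the annotation gives no gene ID. Its change was 0.0068.

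Of the 4 subunits of the histone cleavage complex, none passed. CPSF3, the endonuclease, had a change of 0.34 (limma adjusted p = 0.275), and its groups lay apart at 11.73, 11.73 and 11.81 in NC and 11.94, 12.28 and 12.07 with apoM. SYMPK, the scaffold symplekin, had a change of -0.30 and CSTF2 of 0.26. In the list of cap binding, elongation and export, none of 6 passed. SRSF7 had a change of 0.58 (limma adjusted p = 0.139) and SRSF3 of 0.39, both splicing factors that bind histone mRNA for export, and NCBP2 of the cap-binding complex had -0.15. SRSF7 passed without NC replicate 3 (adjusted p = 0.0357).

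None of 8 partners and turnover factors of SLBP passed. MIF4GD, also called SLIP1, which links SLBP to translation, had a change of 0.72 (limma adjusted p = 0.159). It read 6.41, 6.34 and 7.24 in NC and 7.40, 7.63 and 7.11 with apoM, so the third NC array lay within the apoM range. Without that array it passed, at 1.01 (adjusted p = 0.0203). FEM1C, of a ubiquitin ligase family, had a change of -0.42 (limma adjusted p = 0.210) on the brighter of its 2 features. It passed on the mean of both features, at -0.72 (adjusted p = 0.0465). CDK1, the mitotic kinase, had a change of 0.37.

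Among 15 genes of histone mRNA decay, 1 rose and 14 did not pass, with a median change of 0.16. LSM2, a member of the LSM1-7 ring that binds the uridylated histone mRNA end, read 10.24, 10.78 and 11.24 in NC and 12.03, 12.13 and 11.61 with apoM. Its groups lay apart and it rose by 1.17 (SE 0.25, limma adjusted p = 0.0496), close to the threshold. It did not pass in 8 of 16 refits, with adjusted p-values up to 0.162. LSM5 had a change of 0.90 (limma adjusted p = 0.0565) and LSM4 of 0.74 (limma adjusted p = 0.0594), both with their groups apart. Each of these 2 passed in 4 of 16 refits. LSM3 had a larger change, 1.165 (limma adjusted p = 0.0662), also with its groups apart.

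Genes that ran most like each of the 7 over the 6 arrays were sought among 10838 genes that code for protein and read above the median. With so few arrays many genes run alike, and the values are a description. SLBP was nearest to ACAA1, a peroxisomal thiolase, and PON3, a paraoxonase, with Pearson's r of 0.991 for each, and 86 genes had r above 0.95. LSM10 was nearest to AP1S1 and LLPH, with r of 0.998 each, and 195 genes were above 0.95. LSM11 was nearest to SRF at 0.984 and C1orf53 at 0.980. NPAT was nearest to EIF4E1B at 0.990 and ZNF626 at 0.983, and CASP8AP2 to CHTF18 at 0.981 and KRTAP3-1 at 0.977. ZNF473 was nearest to PPP1R9B at 0.982 and ABCB6 at 0.978, and ERI1 to GCG at 0.984 and PDGFB at 0.976. None of these 14 genes passed in limma.

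Over all alternatives the 7 genes kept their directions. In 112 of 112 refits, 16 for each gene, the sign of the change was that reported, and no adjusted p was below 0.0621. The change ran from 0.30 to 0.46 for SLBP, from 0.34 to 0.67 for LSM10 and from 0.28 to 0.74 for LSM11. It ran from -0.25 to -0.08 for NPAT, from -0.29 to -0.15 for CASP8AP2, from -0.36 to -0.11 for ZNF473 and from 0.04 to 0.23 for ERI1. One alternative took out the trend of the changes on gene span, the distance from start to end of a gene with its introns. LSM10 has a span of 4.47 kb, LSM11 of 17.0 kb, SLBP of 19.6 kb, ZNF473 of 22.8 kb, CASP8AP2 of 44.6 kb, NPAT of 65.4 kb and ERI1 of 97.2 kb, beside a median of 26.1 kb over protein-coding genes. With that trend removed, SLBP had 0.30, LSM10 0.34 and LSM11 0.42, and ZNF473 had -0.32.

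**Figure D4:**
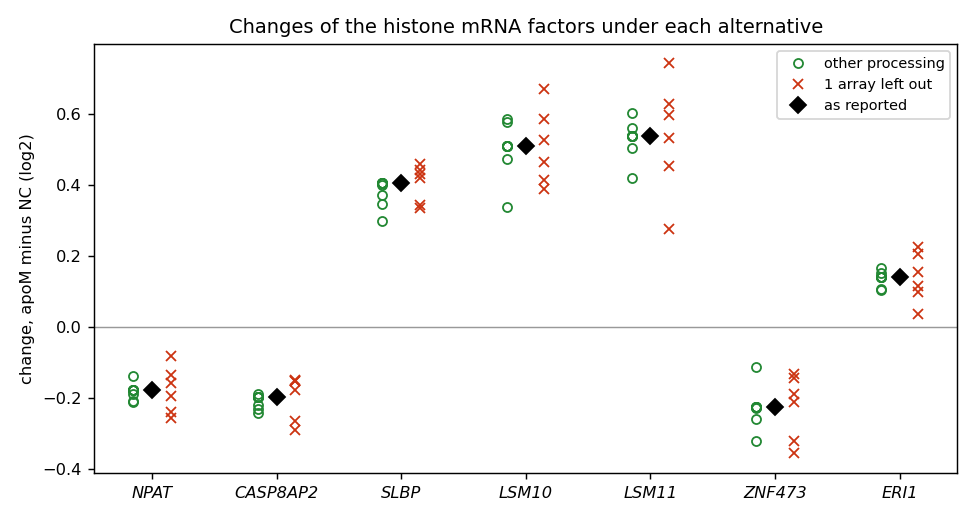
The log2 change (vertical axis) of each of the 7 genes as reported, under 10 other ways of processing or testing, and with each of the 6 arrays left out. Several of the 10 alter only the p-value and so repeat the reported change. No gene crosses 0, and LSM11 moves farthest, between 0.28 and 0.74.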

How the data were processed

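The authors deposited log2 values of 135750 features on 6 arrays, with the scale judged from their range. Affymetrix Expression Console is the tool listed in the submitters' processing notes, and the sources used here name no version, normalization method or genome build. Values were used as deposited. Features with 1 gene symbol were named from the platform annotation and updated through the GRCh38.p14 gene table, and the brightest feature on average stood for its gene, which left 33616 genes. Only 6 arrays limit the precision.

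Groups were compared in R 4.3.3 with limma 3.58.1 (lmFit, eBayes, two-sided, Benjamini-Hochberg over all genes), after a test on simulated data. Alternatives covered quantile normalization, subtraction of array medians, a floor at the median level, averaging of features, use of all features, trend and robust moderation, array weights, a replicate block, protein-coding genes alone, a lowess correction for gene span, an adjusted p of 0.1 and each array left out. Permutation tests used scipy 1.17.1. Promoter windows came from RefSeq (GRCh38.p14).

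The 7 genes and the lists were chosen with earlier results of these data known. Named genes were APOM, the 7 genes, those of each pathway list that passed and its 3 smallest p, SNRPD1, SNRPD2, ATM, MKI67, PCNA and the 2 genes most like each of the 7. Others named were chosen after their values were seen. Of the 56 genes in the pathway lists, 50 were analysed here.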

Additional observations from a re-analysis of the deposited data

How the results depend on the processing

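The 7 genes kept their directions and none passed in any of the 16 refits of each, and APOM passed in all 16. Several of these refits could alter the p-values of the 7 genes but not their changes. The count of 691 genes was 2 over all features, 1679 with array weights, 1251 with trend and robust moderation, 241 without the span trend, 1730 among genes above the median level, 195 among protein-coding genes, 50 with the replicate block, 2327 at an adjusted p of 0.1, and 2 to 2358 with 1 array left out. The 2 pathway genes became 0 over all features and with the replicate block, 9 with array weights, among genes above the median level and at 0.1, 7 with trend and robust moderation, and 0 to 12 with 1 array left out. The 35 histone and 2 S phase genes that passed became 0 over all features and with the replicate block. The cause was not tested. SNRPD2 missed the threshold over all features (adjusted p = 0.0744), with the replicate block (0.0585) and without any 1 array except NC replicate 3 (up to 0.124). LSM2 missed it there and on the mean of features (0.05003). Same-numbered arrays did not deviate together (r of -0.14, 0.05 and -0.14), beside r of -0.08 to 0.21 between arrays of different number. The labels do not say whether the numbers pair the arrays, and deviations from means of so few arrays cannot decide it. Signs turned for GCG without the span trend (-0.0394), AP1S1 (-0.0279) and SRF (-0.14) on the mean of features, ABCB6 with quantile normalization (0.0206), NCBP2 without apoM overexpression replicate 1, PDGFB without replicate 2 and ATM without replicate 3, with ranges over arrays left out of -0.27 to 0.0126, -0.0127 to 0.24 and -0.22 to 0.0014. The change of SNRPD1 minus that of LSM10 turned to -0.0591 with quantile normalization.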

Other observations

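A feature annotated to both C12orf57 and RNU7-1 read 7.25, 7.37 and 8.09 in NC and 9.28, 9.13 and 8.79 with apoM, a change of 1.4955 with the groups apart (exact two-sided permutation p = 0.1, the smallest possible). It carries 2 symbols, so the signal belongs to neither gene by name, and it differs from the dim feature given for RNU7-1 alone.

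All 7 genes of the LSM1-7 ring, a group singled out after its values were seen, had values higher with apoM, from 0.29 to 1.17 with a median of 0.74. LSM1 had the lowest change (limma adjusted p = 0.598), with its groups overlapping, and LSM2 the highest. Of the 7 ring genes, 1 passed in limma, beside 2.06% of all genes, and 5 had groups that lay apart, all higher, beside 17.3% of all genes. As deviations from each gene's mean, their medians on NC replicates 1, 2 and 3 were -0.67, -0.53 and -0.02, and with apoM 0.36, 0.54 and 0.27. NC replicate 3 was the highest of the NC arrays, below all 3 arrays with apoM. LSM10 and LSM11, which are not part of that ring, had changes of 0.51 and 0.54.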
